A study of Mus musculus with 2 samples.

Results

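The solute carriers, gene symbols that begin with Slc, are the membrane proteins that move ions, sugars, amino acids, metals, vitamins and drugs across cell membranes without spending ATP directly. Here the solute carrier genes were described that an expression array detected in embryonic mouse ureters labelled as Smad4 knockout and control. Members were chosen by signal over background: a gene was taken when at least 2 of the 4 spots of a probe stood well above background in both colours on each array. That held for 280 of 370 solute carrier genes on the array, and for 348 of their 504 probes. The ratio between genotypes took no part in the choice. A gene whose signal was lost in either genotype was therefore left out by construction.

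The knockout ureters carried Pax-cre/+;Smad4(fl/fl), written Pax2-cre/+ in the title of the series and named Smad4cKO (UE). The control ureters were Smad4(fl/?), a genotype that leaves the second allele open and names no cre. All embryos were of the NMRI strain at day E14.5, and 150 ng of total RNA per sample was labelled. Replicate 1 paired a female knockout sample in Cy3 with a female control sample in Cy5. Replicate 2 paired a male knockout sample in Cy5 with a male control sample in Cy3, so sex and dye orientation cannot be told apart. The labels do not give the number of embryos behind a sample, so p-values rest on these 2 arrays alone. The variance behind them was drawn mostly from all genes tested, and only in part from a gene's own spread between the arrays. In whole ureters, fewer cells of a type and less RNA per cell cannot be told apart.

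SMAD4 joins the SMAD proteins that TGF-beta and BMP receptors activate and enters the nucleus with them. Pax2-cre is known for recombination in the nephric duct lineage, which forms the epithelium of the ureter. That epithelium, the urothelium, matures into a barrier against urine, while the surrounding mesenchyme forms smooth muscle. Solute carriers are numbered by family: Slc2 proteins carry hexoses, Slc16 monocarboxylates, Slc25 metabolites of mitochondria, Slc35 mostly nucleotide sugars, and Slc39 zinc and related metals into the cytosol. Among the 280 genes, 5 bear a solute carrier symbol without being a functional carrier by name. These are the PDZ scaffolds Slc9a3r1 and Slc9a3r2, the adaptor Slc4a1ap, and the pseudogene entries Slc2a4rg-ps and Slc22a13b-ps.

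The results turn on 3 genes, and their probes are shown because each was read by a single detected probe. The first 30 bases of each 60-base probe are given, in lower case throughout, since no stretch of a probe is set apart. The Slc16a5 probe that gave the values lies at chr11:115335616-115335675 (mm9, plus strand). A second Slc16a5 probe at chr11:115324039-115324098 was well above background in no spot. The Slc35g1 probe lies at chr19:38479940-38479999 (plus strand) and the Slc39a4 probe at chr15:76442866-76442925 (minus strand). Exon and UTR annotation of that build was not used here.
Slc16a5: ttctgtggcgtgcccatgtgcgcgcaccat
Slc16a5, second probe: tgatctgcagcgcgactttcaggccagcaa
Slc35g1: gtggtatacaaggctatgtattgtaacaat
Slc39a4: ctctgctttaccttcttaagccacctaatt

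Across the arrays 67.75% to 69.2% of probes were well above background on replicate 1 and 66.6% to 68.7% on replicate 2, and 0 spots were saturated. Within a solute carrier probe, the 4 spots had a median SD of 0.0633 and 0.0636 on the log2 scale on replicates 1 and 2. Smad4 itself had log2 ratios of -0.58 and -0.08 on the arrays and did not pass the test, and the files do not place its probe relative to the deleted part. Urothelial markers stood higher in the knockout, with 6 of 12 past the test and Upk3a highest at a mean log2 ratio of 1.55. Over all genes tested, 0.229% were called higher. The summed log2 intensity of the urothelial list was 16.61 and 16.35 in knockout samples, against 16.11 and 15.88 in control samples. Among 10 collecting duct markers, 3 were higher past the test, Aqp3 (0.98), Foxi1 (0.81) and Elf5 (0.76). The median of that list was only 0.092, and Scnn1a had -0.68 and -0.67 (limma adjusted p = 0.0546). Of the 9 markers of ureteric mesenchyme and smooth muscle, 0 passed, with a median of -0.023. Their summed log2 intensity was 17.34 and 17.38 in knockout samples, against 17.69 and 17.56 in control samples. Foxf1 (mean log2 ratio -0.70), Col1a1 (-0.48), Myocd (-0.44) and Pdgfra (-0.02) were below 0 on both arrays. Acta2 (0.24), Tcf21 (0.16), Tagln (0.14) and Myh11 (0.12) were above 0 on both, and Tbx18 had opposite signs.

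Most solute carrier genes differed little between genotypes. Slc16a5, which encodes monocarboxylate transporter 6, fell in the knockout to a level 2.27-fold below the control, and Slc35g1 rose. Every other member missed the threshold. Tested with limma against 0 and adjusted by Benjamini-Hochberg over 20104 genes, 2 of 280 members passed at an adjusted p of 0.05, which is 0.714%, against 0.328% of all genes tested. Called in the knockout as higher were 1 member (0.357%, background 0.229%) and as lower 1 member (0.357%, background 0.0995%). At an unadjusted p under 0.05 there were 15 members (5.36%), against 4.55% of all genes. Of these, 8 were higher (2.86%, background 2.09%) and 7 lower (2.5%, background 2.46%). The mean log2 ratio lay within 0.2 of 0 for 249 members (88.9%, background 88.4%). The median of the members' means was -0.0205, against -0.00438 over all genes, and their SD across genes was 0.163, against 0.153.

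Slc16a5 is known from the human protein as a carrier of drugs such as bumetanide. Its log2 intensity was 7.85 and 7.94 in the knockout samples of replicates 1 and 2, against 9.10 and 9.07 in the control samples. Both knockout channels lay below both control channels. With 2 samples per genotype such separation is no test, and its share over all genes is not given here. The log2 ratio was -1.25 and -1.13, with a mean of -1.19 ± 0.09 (SD, n = 2), a 2.27-fold lower level in the knockout (limma adjusted p = 0.00244). The call was lost with median centring in place of loess (limma adjusted p = 0.9998) and without the filter on dim probes (limma adjusted p = 0.352). In both of these settings 0 of all genes tested passed. Signs follow the dyes in the labels. In the authors' deposited table the signed fold of the same probe was 3.26 and 2.73, positive where the ratio here is negative. Over all probes that table correlated with knockout over control at -0.82 and -0.74, so by the labelled dyes it runs control over knockout.

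Slc35g1 belongs to the Slc35 family, and its human counterpart is known as a partner of STIM1 in the endoplasmic reticulum. The log2 intensity was 11.30 and 11.27 in knockout samples, against 10.53 and 10.30 in control samples. Its log2 ratios of 0.77 and 0.97 gave a mean of 0.87 ± 0.14 (SD, n = 2), 1.83-fold higher in the knockout (limma adjusted p = 0.0166). It too lost the call with median centring (limma adjusted p = 0.9998) and without the filter (0.601), where 0 of all genes passed. It also lost the call with the 4 channels as unpaired samples (limma adjusted p = 0.0502), where 26 of all genes passed. The 250 bases upstream of the Slc35g1 start, from RefSeq (GRCm38.p6, chr19:38395730-38395979, plus strand), are shown because Slc35g1 rose and SMAD proteins are known to bind CAGAC and GGCGCC. Capitals mark each match on either strand.
Slc35g1 upstream: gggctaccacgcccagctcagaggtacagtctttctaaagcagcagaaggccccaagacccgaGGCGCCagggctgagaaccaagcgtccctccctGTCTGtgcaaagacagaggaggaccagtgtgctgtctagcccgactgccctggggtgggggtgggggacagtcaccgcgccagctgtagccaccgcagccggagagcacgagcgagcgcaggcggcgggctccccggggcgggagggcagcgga
The window held 1 match to CAGAC, read as GTCTG on the printed strand, and 1 match to GGCGCC, which is its own reverse complement. These letters do not overlap each other. Of 32851 promoters in the RefSeq table, 42.2% held CAGAC or GTCTG and 9.59% held GGCGCC in the window of the same length. A match is a description of letters and not of binding. Promoter entries were found for 215 of the 280 members. Slc16a5 and Slc39a4 had no entry.

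Slc39a4 encodes ZIP4, the zinc importer of the gut that is mutated in human acrodermatitis enteropathica. Its log2 intensity was 10.01 and 9.99 in knockout samples, against 9.41 and 9.31 in control samples. The log2 ratios of 0.60 and 0.69 gave a mean of 0.64 ± 0.06 (SD, n = 2), which is 1.56-fold and missed the threshold (limma adjusted p = 0.0755). It passed under 7 of the alternative ways of processing. Those settings also called more genes over the whole array, 88 to 194, against 66 as processed here. By size alone at the brightest probe, with both arrays past 1.5-fold and pointing the same way, 3 members stood out (1.07%, against 0.368% of all genes). They were Slc16a5 below, and Slc35g1 and Slc39a4 above (0.357% below, background 0.104%, and 0.714% above, background 0.264%). Beside the higher values of Slc35g1 and Slc39a4 stand the higher urothelial markers and the 3 higher collecting duct markers given above, while the collecting duct list as a whole had a median of 0.092. Their part in these values was not tested.

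**Figure D1:**
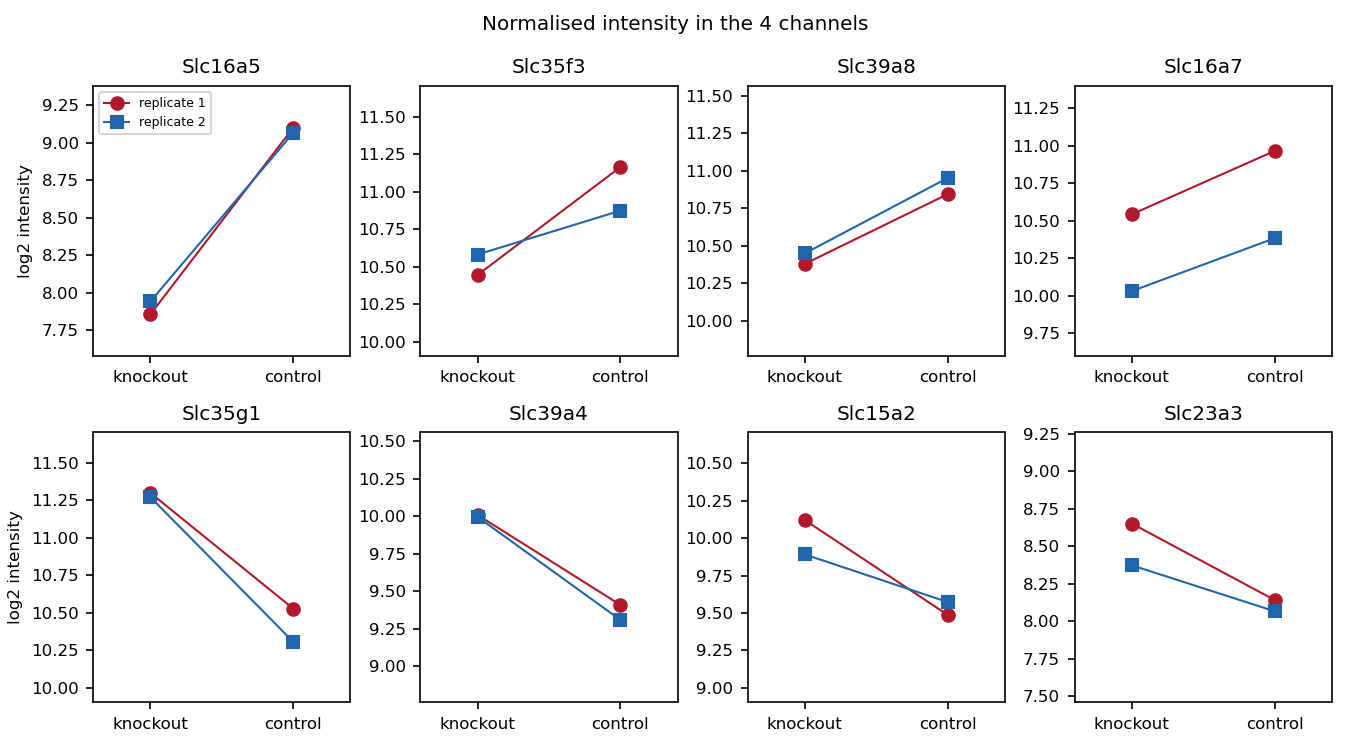
Normalised log2 intensity (vertical axis, a span of 1.8 in every panel) in knockout and control ureters, with 1 line per array, for the 4 genes with the lowest (top row) and the 4 with the highest mean log2 ratio among members with 1 sign on both arrays. Slc16a5 lies at 7.85 and 7.94 in the knockout, against 9.10 and 9.07 in the control, and Slc35g1 at 11.30 and 11.27 in the knockout, against 10.53 and 10.30 in the control.

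Below these 3 genes the mean changes at the brightest probe of a gene were smaller and none passed. On the low side, Slc35f3 had log2 ratios of -0.72 and -0.29 (limma adjusted p = 0.352), with intensities of 10.45 and 10.58 in knockout samples, against 11.17 and 10.88 in control samples. Slc39a8, the zinc and manganese importer ZIP8, was close between arrays, with -0.46 and -0.50 (limma adjusted p = 0.267) and intensities of 10.38 and 10.45 in knockout samples, against 10.84 and 10.95 in control samples. In both genes all knockout values lay below all control values, with the limit given for Slc16a5. Slc7a5, which encodes the large neutral amino acid transporter LAT1, had -0.58 and -0.08 at its brightest probe, with nearly all of that difference on replicate 1. Its other detected probe had -0.055 and -0.11. Slc24a3, a potassium-dependent sodium/calcium exchanger, had -0.48 and -0.11, and Slc8a2, the sodium/calcium exchanger NCX2, -0.42 and -0.0054. The mitochondrial carrier Slc25a48 had -0.26 and -0.22, and its mean reached -0.58 in the authors' deposited table turned to knockout over control. Slc12a4, the potassium-chloride cotransporter KCC1, had -0.06 and -0.37.

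On the high side, the peptide transporter Slc15a2, known as PEPT2 of kidney, had log2 ratios of 0.63 and 0.32 (limma adjusted p = 0.357). Its intensities were 10.12 and 9.89 in knockout samples, against 9.49 and 9.57 in control samples. Slc23a3, of the family of ascorbate transporters, had 0.51 and 0.31, and Slc12a7, the potassium-chloride cotransporter KCC4, 0.27 and 0.53. Slc22a29 had 0.70 and 0.05, and its mean of 0.38 became 0.76 with Agilent's processed signals. It belongs to a cluster of closely similar organic anion transporter genes, so the source of its signal is uncertain. The GABA and taurine transporter Slc6a13 (0.28 and 0.33) and Slc35f2 (0.35 and 0.25) were close between arrays. The riboflavin transporter Slc52a3 (0.29 and 0.17), Slc12a8 (0.42 and 0.05) and the scaffold Slc9a3r1 (0.11 and 0.38) were also among the 12 highest. The mean of Slc52a3 was 0.23 here and 0.65 in the authors' deposited table turned to knockout over control, and that of Slc12a8 was 0.24 here and 0.40 there.

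**Figure D2:**
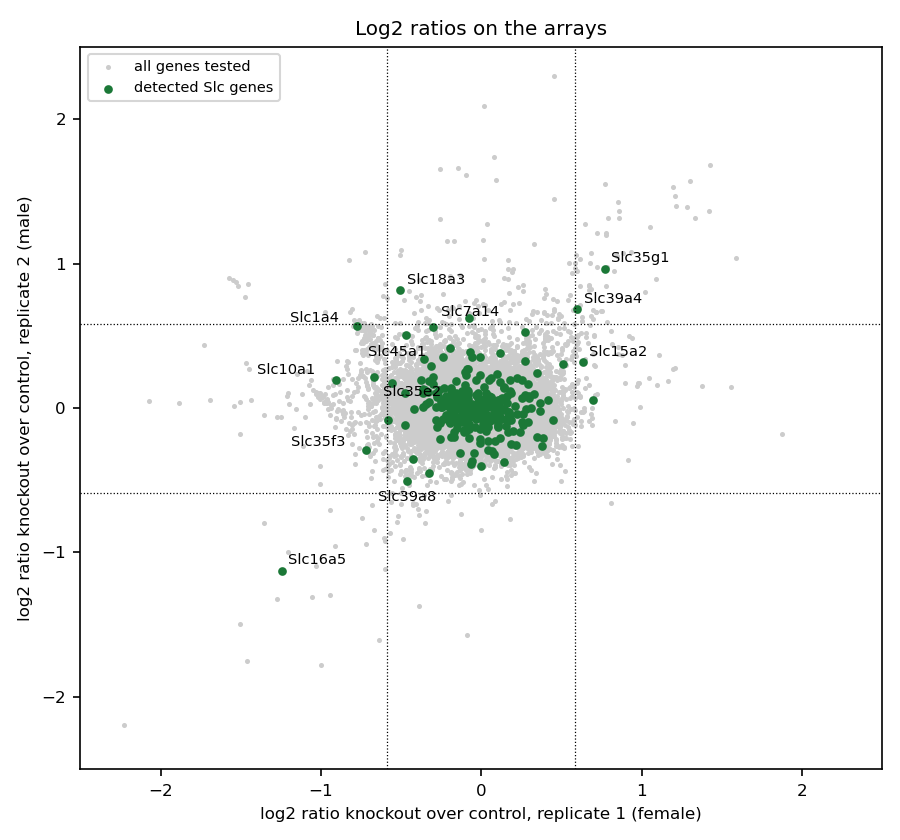
Log2 ratio of knockout over control on replicate 1 (horizontal axis) against replicate 2 (vertical axis) for the 280 detected solute carrier genes (green) and all 20104 genes tested (grey), with dotted lines at 1.5-fold. Slc16a5 lies beyond both lines below and Slc35g1 and Slc39a4 beyond both lines above.

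The plot of both arrays shows how little of the remaining spread was shared. Of the 280 members, 56 were above 0 on both arrays (20%, against 21.7% of all genes) and 72 below 0 on both (25.7%, against 24.6%). The signs were opposite in 152 (54.3%, against 53.7%). Across these genes, which share arrays and dyes, the arrays correlated at r = 0.10 and rho = -0.081 (n = 280 genes), beside r = 0.017 and rho = -0.082 over all genes. Among the members with opposite signs, 87 were brighter in Cy5 on both arrays and 65 in Cy3, which is 31.1% and 23.2% of the members, against 27.1% and 26.5% of all genes.

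By family, the monocarboxylate transporters of the Slc16 family lay mostly below 0. All 14 Slc16 genes on the array were detected, 7 were below 0 on both arrays and 0 above 0 on both, where 24.6% and 21.7% of all genes were. Their median log2 ratio was -0.107, against -0.00438 over all genes, and without Slc16a5 it was -0.09 over 13 genes. Only Slc16a5 passed the test. Slc16a11, whose human gene is linked to type 2 diabetes risk, had -0.33 and -0.45, with intensities of 7.95 and 8.06 in knockout samples, against 8.28 and 8.51 in control samples. Slc16a9, a carnitine carrier in human, had -0.13 and -0.31, and Slc16a10, the aromatic amino acid transporter TAT1, -0.19 and -0.20. Both are values of the brightest probe. The other detected probe had -0.118 and 0.0008 for Slc16a9, and -0.012 and 0.003 for Slc16a10. The main lactate carriers differed between arrays: Slc16a1 (MCT1) had -0.14 and 0.06 and Slc16a3 (MCT4) -0.28 and 0.10. Slc16a4, with 0.18 and -0.09, was the 1 member of the family with a mean above 0.

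For Slc16a7, which encodes the pyruvate and lactate transporter MCT2, the result depended on the probe. The brightest of its 4 detected probes, at chr10:124665183-124665242 (mm9, minus strand), had -0.42 and -0.35. The other 3 detected probes lay above 0 on both arrays. The probe at chr10:124656357-124656416 had 0.10 and 0.33, the one at chr10:124814547-124814606 had 0.087 and 0.028, and the one at chr10:124825595-124825654 had 0.023 and 0.080. These positions lie apart along the gene, and the first 30 bases of each probe show what was read.
Slc16a7, brightest probe: ctatagacttctcgacaaggaaaggaagag
Slc16a7, probe with 0.10 and 0.33: ccacatgtaaggacgcttctttgcctggat
Slc16a7, probe with 0.087 and 0.028: taagagatcagactgaccttggttaagtgc
Slc16a7, probe with 0.023 and 0.080: cttccctgctggcttctgcattctttactt
Disagreement of this size was rare. More than 1 detected probe was present for 58 members, 20 of these had probes of opposite sign, and in 2 the probes were also at least 0.5 apart. The second was Slc4a9, a bicarbonate transporter of intercalated cells in the kidney. Its brightest probe had -0.07 and 0.02, while its other detected probe had 0.73 and 0.63. That other probe was past 1.5-fold on both arrays, but the count by size above used the brightest probe only.

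The zinc importers of the Slc39 family lay on both sides of 0. Of 12 detected Slc39 genes, 6 were below 0 on both arrays and 2 above 0 on both, Slc39a4 and Slc39a10 (0.30 and 0.09), with a family median of -0.113. Slc39a8 and Slc39a14 (ZIP14, -0.06 and -0.39) were lowest, followed by Slc39a13 (ZIP13), which had -0.26 and -0.10. Among the 8 detected genes of the Slc30 family, most of them zinc exporters, 3 were above 0 on both arrays and 2 below. Slc30a7 was highest with 0.33 and 0.09, and Slc30a2, known for zinc export in the mammary gland, lowest with -0.28 and -0.08. The other detected Slc30a7 probe had 0.11 and -0.03. The iron exporter Slc40a1 (ferroportin) had 0.23 and 0.21. Of the metal ion genes apart from Slc39a4 and Slc39a8, the mean log2 ratios lay between -0.22 and 0.22.

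Sugar carriers of the Slc2 family showed 5 of 11 genes below 0 on both arrays and 0 above 0 on both, with a median of -0.074. These 11 include the pseudogene entry Slc2a4rg-ps, which is not a sugar carrier. Slc2a10 was lowest with -0.17 and -0.20, and Slc2a4, the insulin-responsive GLUT4, had -0.20 and -0.09. The widespread glucose transporters of embryonic tissue had opposite signs, with -0.30 and 0.21 for Slc2a1 and -0.24 and 0.35 for Slc2a3. Medians of the Slc16, Slc39 and Slc2 families kept their sign under each of the other scalings, but their size differed between arrays. On replicates 1 and 2 taken alone the median was -0.031 and -0.10 for Slc39, -0.17 and -0.031 for Slc2, and -0.16 and -0.075 for Slc16. With median centring in place of loess, the Slc2 counts became 3 below and 1 above, the Slc16 counts stayed at 7 and 0, and the Slc39 counts became 5 and 2. With the mean over probes the Slc16 counts became 6 and 0, with a median of -0.070.

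**Figure D3:**
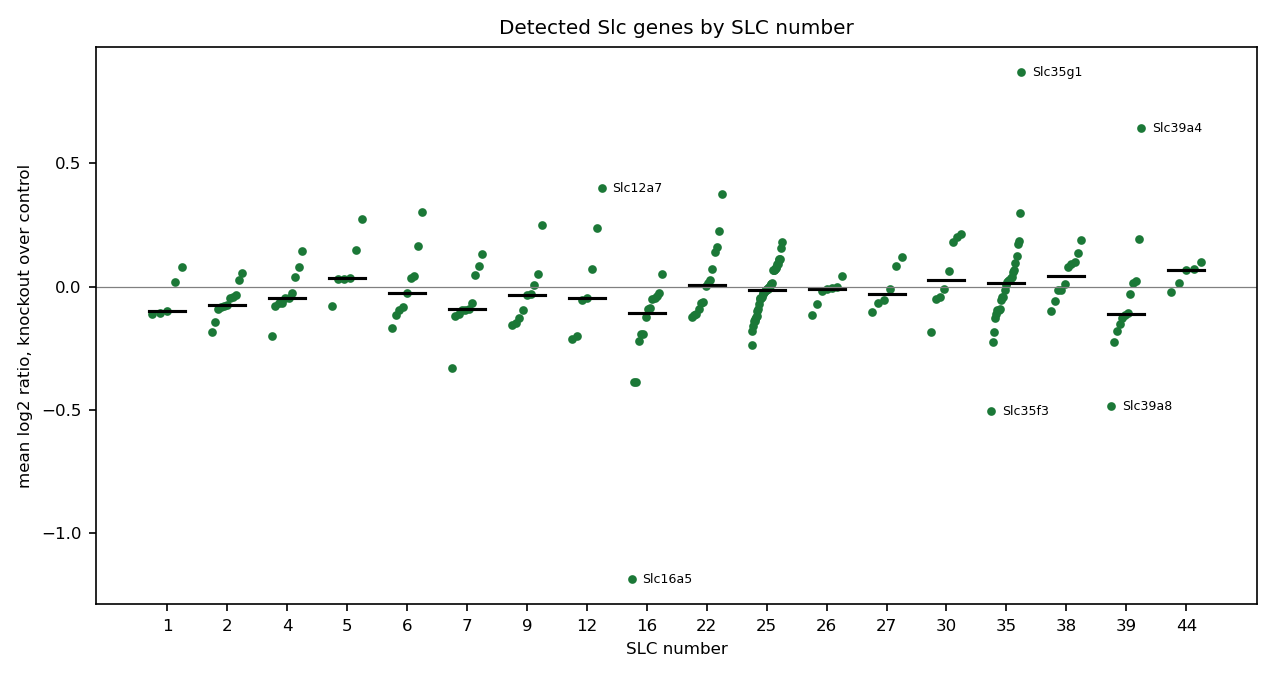
Mean log2 ratio of knockout over control (vertical axis) for each detected gene of the 18 families with at least 5 genes (horizontal axis, SLC number), with a black bar at the family median. Medians lie between -0.113 and 0.065, and Slc16a5, Slc35g1 and Slc39a4 lie outside the range of the other genes of their families.

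The largest families stayed near 0. Of 42 mitochondrial carriers of the Slc25 family, 8 were above 0 on both arrays and 11 below, with a median of -0.0125 and means between -0.24 for Slc25a48 and 0.18 for Slc25a17, the peroxisomal member. The Slc35 family had 7 of 26 above and 6 below, and its extremes Slc35g1 and Slc35f3 are described above. Among 14 detected organic ion transporters of the Slc22 family, of 26 on the array, 4 were above and 2 below. The amino acid carriers of the Slc38 family showed 3 of 10 above and 0 below, with Slc38a5 highest at 0.18 and 0.19. All 7 detected anion exchangers of the Slc26 family had opposite signs on the arrays, although in the authors' deposited table, turned to knockout over control, 1 of them was above 0 on both. Pendrin, Slc26a4, had -0.36 and 0.34, and Slc26a7 had 0.21 and -0.25.

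The remaining families had small extremes, many with 1 sign on both arrays. The Slc1 (5 genes) and Slc7 (10 genes) medians, -0.098 and -0.093, were lower than that of Slc2. They changed sign between the arrays, with -0.16 and 0.13 for Slc1 and -0.14 and 0.059 for Slc7. The taurine transporter Slc6a6 had -0.17 on replicate 1 and -0.16 on replicate 2. Slc4a4, the sodium bicarbonate cotransporter NBCe1, had -0.28 and -0.13, and the scaffold Slc9a3r2 had -0.24 and -0.08. The glutamate transporter Slc1a6 had -0.16 and -0.06, and the vitamin transporter Slc5a6 -0.0082 and -0.15. On the other side lay Slc1a5 (0.02 and 0.14), the choline transporter-like Slc44a5 (0.13 and 0.07) and the fatty acid transporter Slc27a2 (0.05 and 0.19), whose mean of 0.12 became 0.33 with Agilent's processed signals.

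The 6 members farthest apart between arrays were all lower in the knockout on replicate 1 and higher on replicate 2. By the dye swap, all 6 were brighter in Cy5 on both arrays, and dye cannot be told apart from sex here. Slc1a4, the neutral amino acid transporter ASCT1, had intensities of 9.87 and 10.72 in knockout samples, against 10.65 and 10.15 in control samples, and log2 ratios of -0.78 and 0.57. The vesicular acetylcholine transporter Slc18a3 had 8.53 and 8.99 in knockout samples, against 9.04 and 8.18 in control samples, with ratios of -0.51 and 0.81. In both genes the genotypes overlapped. Slc45a1, a sugar transporter of brain, had -0.47 and 0.51, Slc7a14 had -0.30 and 0.56, and Slc35e2 had -0.67 and 0.21. The other detected Slc35e2 probe had 0.042 and 0.099. Slc5a7, which takes up choline into cholinergic neurons, had -0.08 and 0.62, and its mean of 0.27 became 0.47 with Agilent's processed signals. All 4 detected genes of the Slc18 family, whose members load transmitters and polyamines into vesicles, had opposite signs, with medians of -0.21 on replicate 1 and 0.25 on replicate 2. Of 9 markers of neurons and glia, 8 lay the same way, below 0 on replicate 1 and above 0 on replicate 2. Those 8 were likewise brighter in Cy5 on both arrays, and 1 marker lay below 0 on both. The median over all 9 markers came to -0.45 on replicate 1, with 0.63 on replicate 2, and 0 passed the test. Their summed log2 intensity was 16.69 and 16.94 in knockout samples, against 17.21 and 16.90 in control samples. The part of these markers, or of the dyes, in the ratios of Slc18a3, Slc5a7 and the other genes here was not tested.

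**Figure D4:**
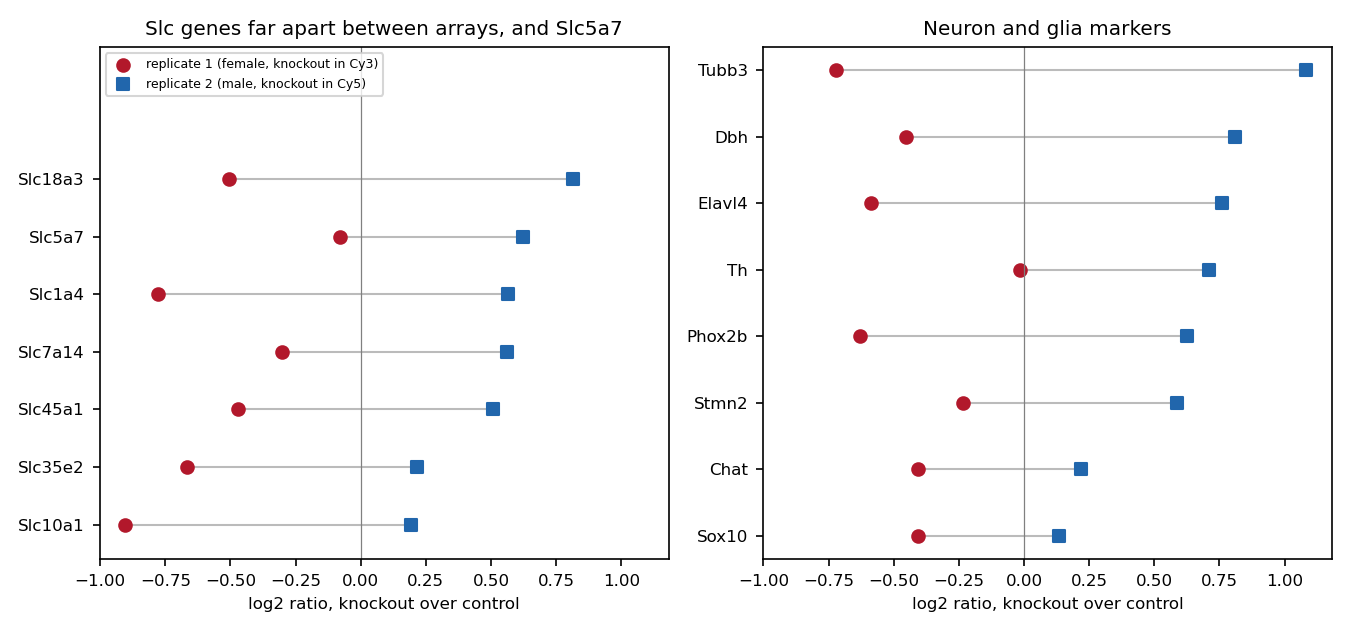
Log2 ratio of knockout over control (horizontal axis) on replicate 1 (circles) and replicate 2 (squares) for the 6 members farthest apart between arrays with Slc5a7 (left), and for 8 of the 9 markers of neurons and glia (right). All circles plotted lie below 0 and all squares above it.

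Slc10a1 encodes NTCP, the bile acid importer of liver cells, and had log2 intensities of 17.16 and 17.87 in knockout samples, against 18.07 and 17.68 in control samples. Its ratios were -0.90 and 0.19. The 6 liver markers had a summed log2 intensity of 12.77 and 13.62 in knockout samples, against 12.03 and 12.78 in control samples, with Afp past the test (mean log2 ratio 1.31) and Alb at -0.09 and 1.61. These values come from 1 of 2 Slc10a1 probes on the array, and the other was well above background in 0 spots on either array. Which transcripts the bright probe reads was not tested. Of the erythroid anion exchanger Slc4a1, the ratios were -0.06 and 0.35, and the 11 erythroid markers had medians of 0.17 and 0.21 with 0 past the test.

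Genes that act with these carriers gave a few larger values, from lists of related genes outside the Slc symbols. The lists were chosen with earlier results of these data known. Over all genes tested, 0.229% were called higher and 0.0995% lower. Among 38 tested solute carriers under other symbols, 0 were called higher and 1 lower, with a median of -0.0145. The lower gene was Rhcg, an ammonia channel of collecting duct, at -1.35 and -0.80 (limma adjusted p = 0.0140). Its relative Rhbg had 0.39 and 0.51 without passing, as did the prostaglandin transporter Slco2a1 with 0.62 and 0.71 and the magnesium transporter Nipal1 with 0.55 and 0.78. Of 13 tested partners and scaffolds, 1 was higher and 0 lower, with a median of -0.029. It was Pdzk1, a PDZ scaffold that binds the tails of several solute carriers, at 1.34 and 1.31 (limma adjusted p = 0.00126). Nedd4l, a ubiquitin ligase for transporters, had -0.39 and -0.31. Basigin, Bsg, which brings MCT1 and MCT4 to the membrane, had 0.21 and 0.14. Of 19 tested subunits of primary ion pumps and their FXYD regulators, 1 was higher and 0 lower, with a median of -0.0075. Fxyd3, a regulator of the sodium pump, had 0.93 and 1.08 (limma adjusted p = 0.00761). The proton pump subunits Atp6v1c2 (0.68 and 0.64) and Atp6v0d2 (0.47 and 0.37) did not pass.

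Of the 90 solute carrier genes outside the rule, 77 were detected in no channel. In 2 genes, Slc22a27 and Slc9a9, the knockout was detected on both arrays and the control only on replicate 2. In 5 genes, Slc22a2, Slc25a18, Slc25a41, Slc26a3 and Slc46a2, the control was detected on both arrays and the knockout only on replicate 1. These 7 names were taken after detection was seen. At the edge of the rule, 9 probes just inside it had log2 ratios between -0.26 and 0.27, and 12 probes just outside it between -0.19 and 0.34.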

How the data were processed

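Total RNA was hybridised to 2 two-colour Agilent arrays. The deposited scanner intensities were made with Agilent Feature Extraction 10.7.3.1, per the submitters' processing notes, and are not yet normalised between dyes. The authors' deposited value table holds a signed fold per probe (treated as a score, since no value lies between -1 and 1), with a median of 1 on each array. Its scale is linear, its centring is not known from the labels or the table, and it served as an alternative, turned to knockout over control. The scanner software's log10 ratios of red over green, deposited in the same files, did not enter any result. From the intensities, background was corrected with normexp (offset 50), dyes with loess (control spots at weight 0), and control and outlier spots were left out, in limma 3.58.1 under R 4.3.3. The 4 spots of a probe were averaged. A probe was kept for testing if, in 1 genotype or both, at least 2 of its spots on each array were well above background (26522 of 39429 probes), and a gene took its brightest kept probe. Log2 intensities per channel come after loess and Aquantile. Ratios were tested against 0 with lmFit and eBayes (two-sided, 1 residual degree of freedom) and Benjamini-Hochberg over 20104 genes. The prior variance, estimated over all genes, had 9.21 degrees of freedom. The number of arrays limits the precision. On data simulated with known changes, larger changes were recovered, and the share of false calls was above the adjusted p threshold.

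Symbols were updated through RefSeq for 28328 probes by accession, 3400 by symbol and 243 by older symbol, and 7458 kept the array's name. Probe coordinates are mm9, as in the files. Genes are named if they passed the test, were 1.5-fold apart on each array, were among the 12 largest means per direction with 1 sign, the extremes of a family of at least 5, the 6 farthest apart between arrays, or had probes of opposite sign at least 0.5 apart; related lists give those that passed and up to 4 more. Other members of a family under description were named after their values were seen. The members and lists were chosen with earlier results of these data known. Values of a few named genes are not reported here.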

Additional observations from a re-analysis of the deposited data

Results flagged for a closer look

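In 17 of the genes taken by the naming rules, the ratio had opposite signs on the female and the male array. Other family members named in the text are not in this count. Opposite signs occurred in 54.3% of all members and 53.7% of all genes. The rules partly set the count, since a rule asks for 1 sign on both arrays and another for a large difference between them. With 1 array per sex, and the dyes swapped between them, the difference between the arrays was not tested. The log2 ratio of the female array minus that of the male array was -1.34 for Slc1a4, -1.32 for Slc18a3, -1.10 for Slc10a1, -0.98 for Slc45a1, -0.88 for Slc35e2, -0.86 for Slc7a14 and -0.70 for Slc5a7. It was -0.59 for Slc2a3, -0.49 for Slc26a1, -0.41 for Slc4a1, -0.30 for Slc27a1, -0.26 for Slc22a13b-ps, -0.21 for Slc38a1, -0.12 for Slc26a2 and -0.095 for Slc4a9. In the opposite direction it was 0.27 for Slc16a4 and 0.059 for Slc44a1.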

How the results depend on the processing

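Of 280 members, 2 passed the limma test as processed above. The number was 3 with Agilent's processed signals, without background correction, with an offset of 0, with all 4 spots required, with the mean over probes, with the authors' deposited table and with a trended prior; the third was Slc39a4 (adjusted p between 0.0208 and 0.0287). It was 0 with median centring (10 members at an unadjusted p under 0.05), where Slc16a5 and Slc35g1 kept log2 ratios of -1.17 and 0.89 at an adjusted p of 0.9998, and 0 without a filter on dim probes (16 at an unadjusted p under 0.05), where the adjusted p was 0.352 for Slc16a5 and 0.601 for Slc35g1. With the 4 channels as unpaired samples and no replicate block it was 1, Slc16a5, and Slc35g1 had an adjusted p of 0.0502. By size, 3 members became 5 to 9 with 1 array left out, which asks for the size on 1 array only. The mean ratio of Slc45a1 turned to -0.016 with processed signals, -0.011 without background correction and -0.017 in the deposited table, and with the mean over probes Slc4a9 turned to 0.32 and Slc44a1 to 0.013. The cause was not tested. With 1 of the 2 arrays left out, no call can be tested. Signal over background limited the description to 280 of 370 genes.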
